A study of Mus musculus with 4 samples.

Results

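Histone genes were described in polyA-selected RNA of mouse BMDM, bone-marrow-derived macrophages, which are obtained by culturing bone marrow cells. Genes were taken by their symbol, which had to begin with Hist1h, Hist2h, Hist3h, Hist4h, H2af, H3f3 or H1f, and 91 of the 55536 genes in the gene tables met this rule. Of these, 70 carry Hist symbols and are called replication-dependent here, and 21 carry H2af, H3f3 or H1f symbols and are called variants. Without pseudogenes and 1 antisense gene, 67 replication-dependent and 15 variant genes were protein coding, and levels of the groups are given for these. All cells belonged to 1 group of 4 replicate libraries from the strain C57BL/6J. The sample descriptions give 100 ng/mL of Lipid A, a TLR4 ligand, over 12 h, its removal for another 12 h, and 60 min of renewed exposure at the same dose. Other label fields name lipoprotein A in its place and mention no removal. Untreated cells are not analysed here, so that no value below is a response. The labels give 1 donor entry for all libraries and number them as separate biological replicates, and p-values measure only the spread between these 4 libraries. The tests also draw on the spread of other genes between the same libraries.

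Histones package DNA into nucleosomes, and their genes fall into types that differ in how the messenger RNA ends. Replication-dependent genes lie in clusters, mostly lack introns and are transcribed mainly in S phase; their messages classically end just after a stem-loop that the protein SLBP binds, and carry no polyA tail. Variant genes lie alone, mostly have introns, are transcribed throughout the cell cycle and give polyadenylated messages. Some replication-dependent genes are known to give polyadenylated messages as well when cells stop dividing and differentiate, by use of a polyadenylation signal downstream of the stem-loop.

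The stem-loop and the polyadenylation signal are shown for the genes on which the results turn, because they are the sequences by which these 3-prime ends differ. They were read from the GENCODE M21 transcripts, with positions in mm10, and each lies in the 3-prime UTR of its gene's model (H3f3a-205 for H3f3a). Capitals in the first set mark the stem-loop, a stem of 6 paired bases closed by a loop.
Hist1h1c, single exon, chr13:23739507-23739532, plus strand: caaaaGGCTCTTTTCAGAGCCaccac
Hist3h2a, single exon, chr11:58955167-58955192, plus strand: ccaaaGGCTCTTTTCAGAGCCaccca
Hist1h4i, single exon, chr13:22040961-22040986, minus strand: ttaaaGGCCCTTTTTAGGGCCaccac
Hist2h2aa2, single exon, chr3:96239779-96239804, minus strand: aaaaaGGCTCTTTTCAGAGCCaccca
Hist2h2aa1, single exon, chr3:96246027-96246052, plus strand: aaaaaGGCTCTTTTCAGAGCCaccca
H2afx, single exon, chr9:44335235-44335260, plus strand: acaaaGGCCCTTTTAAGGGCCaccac
In the models of Hist1h1c, Hist3h2a, Hist1h4i and H2afx, 840, 1643, 330 and 822 bases follow the stem-loop, and a polyadenylation signal stands near the end. In Hist2h2aa2 and Hist2h2aa1 the model stops 35 bases after it. H2afx is the only variant printed with a stem-loop, and it encodes H2A.X, the form phosphorylated at DNA breaks.
Capitals in the second set mark the polyadenylation signal. That of H3f3a stands in H3f3a-205 only. The models of H3f3a-201 and H3f3a-207, which held more of the gene's TPM, have none in their last 40 bases, nor do those of H3f3b.
Hist1h1c, chr13:23740332-23740357, plus strand: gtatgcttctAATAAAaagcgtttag
Hist3h2a, chr11:58956787-58956812, plus strand: gtatatgcccAATAAAataagagtac
Hist1h4i, chr13:22040641-22040666, minus strand: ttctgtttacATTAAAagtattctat
Hist2h2be, chr3:96223707-96223732, plus strand: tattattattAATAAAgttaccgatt
H1f0, chr15:79030473-79030498, plus strand: aaaactttaaAATAAAactggaaagg
H3f3a, chr1:180800838-180800863, minus strand: tttgaaaaatAATAAAagtaccaata

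The search for stem-loops used the letters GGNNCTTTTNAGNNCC on the transcript strand. They occurred in a transcript of 45 of the 91 members (49.5%), each time with 6 paired stem bases, and in 89 of all 55536 genes (0.160%). Either AATAAA or ATTAAA, searched on the transcript strand in the last 40 bases, stood in 48.7% of all protein-coding transcripts. These letters describe the annotated models and do not show where a message ended in these cells.

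Depth and purity bear on every level given. The 4 libraries held 23167140 to 41453162 expected counts on genes. Where a gene has 0 counts, a true value of up to 3 counts is allowed, which is 0.0724 to 0.129 CPM (counts scaled to library size); this limit covers counting error only. Macrophage markers stood high, with all 7 detected in each library and Lyz2, macrophage lysozyme, at 11353 ± 953 TPM (SD, n = 4; TPM is abundance scaled for transcript length and library size). Markers of B cells, T cells, erythroid cells, mast cells and stroma each summed to at most 2.62 TPM in any library. Neutrophil markers summed to 122, 12.4, 96.0 and 11.5 TPM in replicates 1, 2, 3 and 4, nearly all from S100a8 and S100a9, while Ly6g had no count. Ribosomal RNA genes, whose transcripts lack a polyA tail, held 7.14%, 2.73%, 1.29% and 2.69% of TPM, and small noncoding RNA genes 0.0336%, 0.0826%, 0.0545% and 0.0862%. In RNA from whole cultures, fewer cells of a type and less RNA per cell cannot be told apart.

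Replication-dependent histone messages were present in this RNA, but from few genes. At 1 TPM or more in each library, the level at which a gene counts as detected here, stood 11 of 67 replication-dependent genes (16.4%) and 9 of 15 variants (60.0%), beside 9704 of 22028 protein-coding genes (44.1%). No count in any library was given to 18 replication-dependent (26.9%) and 5 variant genes (33.3%), beside 33.2% of all protein-coding genes, so the members' shares are close to or below the background. The median of log2(TPM + 0.1) was -2.30 ± 0.57 for replication-dependent genes, 2.52 ± 0.29 for variants and -1.18 ± 0.11 for all protein-coding genes (SD, n = 4). The difference between the first and the second median was -5.28, -4.61, -4.96 and -4.42 log2 units in replicates 1 to 4, which is a mean of -4.82 ± 0.38. It had the same sign in each library. The replication-dependent median was close to 0 TPM, and the size depends on the constant added: it was -2.58 with 1 and -5.77 with 0.01.

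**Figure D1:**
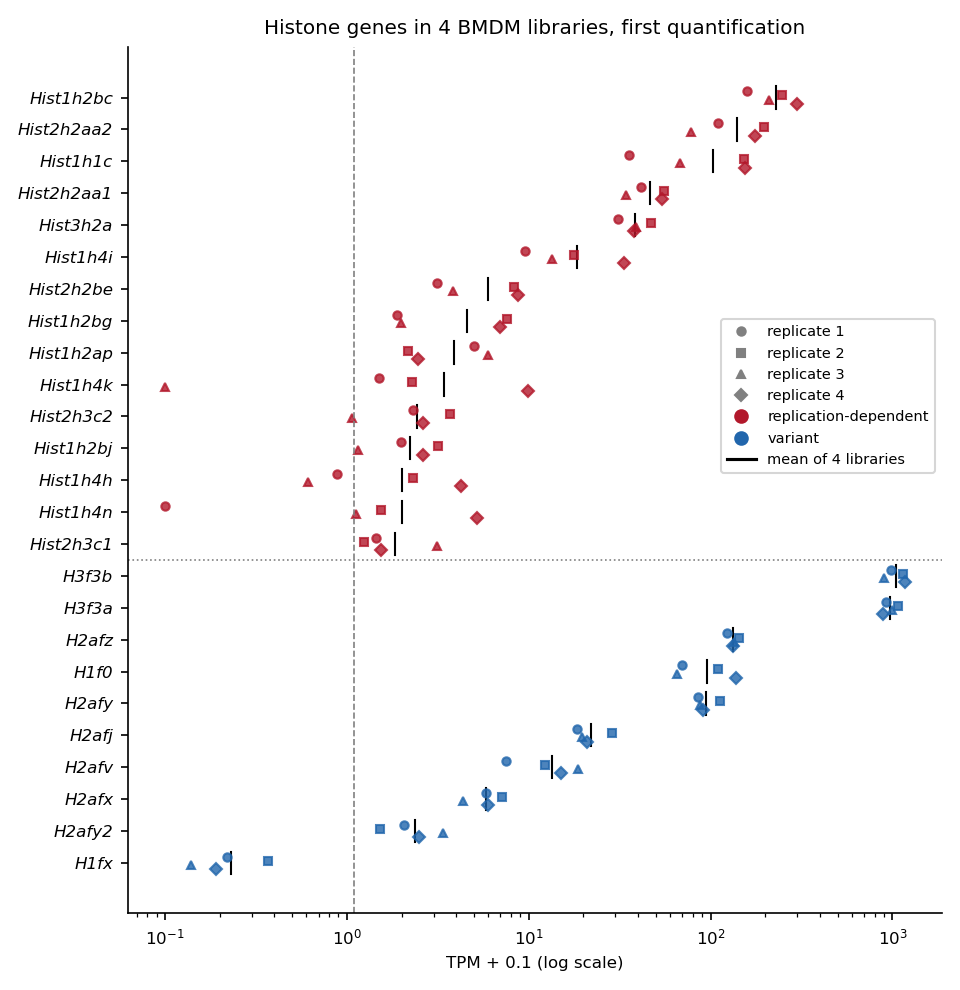
TPM + 0.1 (horizontal log axis) of the 15 replication-dependent genes with the highest means (red, above the dotted line) and of the 10 protein-coding variants with a count (blue, below it), 1 symbol per library and a black bar at the mean; the dashed line marks 1 TPM. The highest replication-dependent gene, Hist1h2bc, averages 228 TPM, and the highest variants, H3f3b and H3f3a, average 1046 and 968 TPM.

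The leading replication-dependent gene was Hist1h2bc, an H2B gene (ENSMUSG00000018102.5, chromosome 13, 23684199 to 23692908). It had 159.0, 247, 210.4 and 297 TPM in replicates 1 to 4, on 2549, 3429, 5469 and 6438 expected counts. It was the only replication-dependent gene above 100 TPM in each library, and its annotated transcript has 2 exons and holds neither the stem-loop letters nor a polyadenylation signal in its last 40 bases. Hist2h2aa2, an H2A gene (ENSMUSG00000063954.7, chromosome 3, 96239749 to 96240276), had 109.7, 198, 78.0 and 176 TPM. Its near-identical neighbour Hist2h2aa1 had 41.5, 55.7, 34.4 and 54.2 TPM. All (100%) of the 31-base stretches of the Hist2h2aa2 model and 89.7% of those of Hist2h2aa1 also occur in another gene, so how counts were split between the pair is uncertain. Their sum was 151, 253, 112 and 230.0 TPM, highest in replicate 2 and lowest in replicate 3.

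Hist1h1c, which encodes linker histone H1.2 (ENSMUSG00000036181.2, chromosome 13, 23738808 to 23740367), had 35.3, 153, 67.6 and 154 TPM. Replicates 2 and 4 were alike and high, and replicate 1 was lowest, 4.35-fold below replicate 4. Hist3h2a, an H2A gene of the small Hist3 cluster, had 31.02, 46.7, 38.7 and 37.6 TPM, and Hist1h4i, an H4 gene, 9.42, 17.6, 13.3 and 33.3 TPM. The levels of Hist3h2a stayed within a 1.51-fold range, while those of Hist1h4i spanned 3.53-fold. The 3 leading genes, Hist1h2bc, Hist2h2aa2 and Hist1h1c, held 76.7 ± 1.82% of replication-dependent TPM, and the first 6 held 94.1 ± 1.18% (SD, n = 4).

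Below these 6, levels dropped to a few TPM. Hist2h2be, an H2B gene whose long single-exon model ends at a polyadenylation signal, had 3.04, 8.18, 3.75 and 8.59 TPM. Hist1h2bg, another H2B gene, had 1.80, 7.50, 1.89 and 6.83 TPM. In both genes replicates 2 and 4 lay above replicates 1 and 3. Hist1h2ap, an H2A gene, ran the other way, with 4.90, 2.06, 5.87 and 2.35 TPM, but on only 20, 7, 37 and 12 expected counts. Of its 31-base stretches, 93.4% occur in another gene. Hist2h3c2 and Hist2h3c1, both H3 genes, had 2.20, 3.61, 0.97 and 2.53 TPM and 1.34, 1.15, 3.02 and 1.44 TPM in replicates 1 to 4. Hist1h2bj, an H2B gene, had 1.89, 3.06, 1.05 and 2.53 TPM, on only 7, 10, 6 and 12 expected counts. The H4 genes Hist1h4k, Hist1h4h and Hist1h4n each missed 1 TPM in at least 1 library: Hist1h4k had 1.41, 2.19, 0 and 9.76 TPM, Hist1h4h 0.78, 2.20, 0.51 and 4.16 TPM, and Hist1h4n 0, 1.45, 1.03 and 5.13 TPM. Replicate 4 was highest in these 3 genes, at 16, 20 and 21 expected counts, so each level rests on few reads. The 56 replication-dependent genes not at 1 TPM in each library together held 2.84 ± 1.45% of replication-dependent TPM.

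By genomic cluster, the 54 protein-coding Hist1 genes on chromosome 13 held 60.7 ± 5.81% of replication-dependent TPM, the 10 Hist2 genes on chromosome 3 held 32.4 ± 5.65%, and the 2 Hist3 genes on chromosome 11 held 6.88 ± 1.60% (SD, n = 4). Detected genes numbered 6 of 54, 4 of 10 and 1 of 2, beside 44.1% of all protein-coding genes. Hist4h4, the 1 gene of the Hist4 locus on chromosome 6, had at most 1 count. Thus the large cluster carried most of the signal through a small part of its members. Of its 54 genes 16 had no count, a share not above the 33.2% of all protein-coding genes.

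The variants were led by H3f3b and H3f3a, which both encode H3.3, the form of H3 that is placed into chromatin outside replication. H3f3b (ENSMUSG00000016559.14, chromosome 11, 116021912 to 116027962) had 984, 1136, 893 and 1171 TPM in replicates 1 to 4, and H3f3a (ENSMUSG00000060743.12, chromosome 1, 180800832 to 180813943) had 916, 1076, 988 and 892 TPM. The ranges of the 2 genes overlapped. Together they held 84.7 ± 1.00% of variant TPM (SD, n = 4).

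Among H2A variants, H2afz, which encodes H2A.Z, a form found at promoters, had 123, 143, 134 and 133 TPM. H2afy, which encodes macroH2A1, a form with a large extra domain linked to silent chromatin, had 85.5, 112, 87.7 and 90.6 TPM. H2afj, H2A.J, had 18.3, 28.7, 19.6 and 20.8 TPM, and H2afv, the second H2A.Z gene, had 7.42, 12.2, 18.5 and 14.9 TPM. H2afx had 5.74, 7, 4.25 and 5.90 TPM, and H2afy2, macroH2A2, had 1.97, 1.42, 3.27 and 2.38 TPM. H2afz thus stood above H2afv, and H2afy above H2afy2, in each of the 4 libraries. In the order of means, H2afz, H1f0 and H2afy were neighbours at 133 ± 8.38, 95.4 ± 34.4 and 94.0 ± 12.3 TPM, and H1f0 and H2afy differed by less than their spread.

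H1f0, which encodes H1.0, the linker histone of differentiated cells (ENSMUSG00000096210.2, chromosome 15, 79028450 to 79030504), had 69.2, 109.8, 65.5 and 137 TPM. As in Hist1h1c, replicates 2 and 4 were higher than replicates 1 and 3. H1fx, the linker histone H1.10, had only 0.12, 0.27, 0.04 and 0.09 TPM. The variants H1foo, H1fnt, H2afb1, H2afb2 and H2afb3 had no count in any library; these are known as germ-cell histones. Without the germ-cell genes of either kind the difference of medians, replication-dependent minus variant, was -7.57 log2 units, with 10 variant genes left, each of which had a count.

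Summed by class, the balance of the types differed widely. For H3, replication-dependent genes had 4.22, 5.86, 4.53 and 4.72 TPM in replicates 1 to 4, against 1899.7, 2212, 1881 and 2064 TPM for variants, which left replication-dependent genes 0.239 ± 0.0187% of H3 TPM (SD, n = 4). For H2A the sums were closer in TPM, at 188, 304, 158 and 272 for replication-dependent genes and 241, 304, 267 and 267 for variants. The replication-dependent share of H2A was 45.3 ± 6.26% in TPM. It was 31.3% in CPM, and 13.9% of TPM without Hist2h2aa1 and Hist2h2aa2. For H1 the replication-dependent sum was 35.6, 155, 68.0 and 155 TPM, nearly all Hist1h1c, against 69.4, 110.1, 65.5 and 137 TPM for variants, nearly all H1f0. The H1 share of 49.1 ± 10.6% ranged from 33.9% in replicate 1 to 58.4% in replicate 2. H2B and H4, which have no variant gene under the rule, had 168, 270, 219 and 323 TPM and 13.1, 24.1, 15.6 and 59.4 TPM. Of the H4 sum, Hist1h4i held the larger part in each library, and the other 12 H4 genes summed to 3.66, 6.54, 2.25 and 26.1 TPM.

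**Figure D2:**
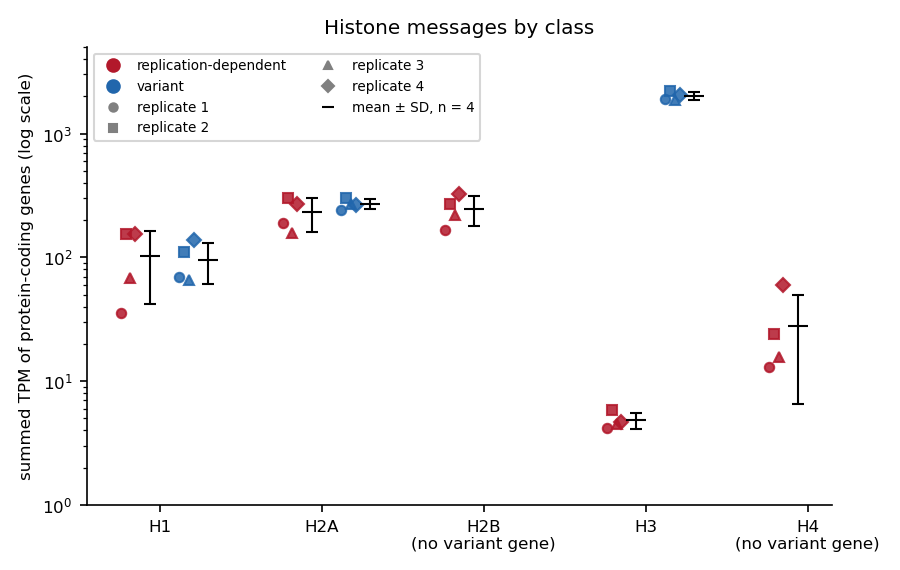
Summed TPM of protein-coding genes (vertical log axis) by histone class, for replication-dependent genes (red, left) and variants (blue, right), with 1 symbol per library and the mean ± SD (n = 4) in black. H3 stands apart, at 4.83 ± 0.715 TPM for replication-dependent genes and 2014 ± 156 TPM for variants, while for H1 and H2A the sums of the types lie within the same order of magnitude.

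Over all classes, replication-dependent genes summed to 409, 759, 465 and 814 TPM and variants to 2210.5, 2627, 2214 and 2468 TPM. The replication-dependent share was 15.6%, 22.4%, 17.4% and 24.8%, a mean of 20.04 ± 4.28% (SD, n = 4). In expected counts, which favour long transcripts, the sums were 5582, 9736, 11896 and 15995 for replication-dependent genes and 49910, 50667, 79031 and 80121 for variants. That gave a share of 13.98 ± 3.05%. Without Hist2h2aa1 and Hist2h2aa2 the share of TPM was 14.9%.

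The annotated 3-prime ends of the 67 replication-dependent genes divided them into groups of similar size. In 22 genes a model runs more than 100 bases past the stem-loop; all 22 had a count in some library, and 5 were detected, namely Hist1h1c, Hist3h2a, Hist1h4i, Hist1h2bg and Hist2h3c1. In 22 genes the model ends within 100 bases of the stem-loop; 7 of these had no count and 4 were detected, namely Hist2h2aa2, Hist2h2aa1, Hist1h2ap and Hist1h2bj. In 23 genes no stem-loop stands in the model; 11 of these had no count and 2 were detected, Hist1h2bc and Hist2h2be. The shares with no count in the groups with a short model and with no stem-loop were 31.8% and 47.8%, beside 33.2% of all protein-coding genes. Among the last group are 11 genes whose model holds coding bases only, of which 8 had no count and none was detected. The median of log2(TPM + 0.1) was -0.98 ± 0.61 in the first group and -3.32, the value at 0 TPM, in the other two groups in every library.

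**Figure D3:**
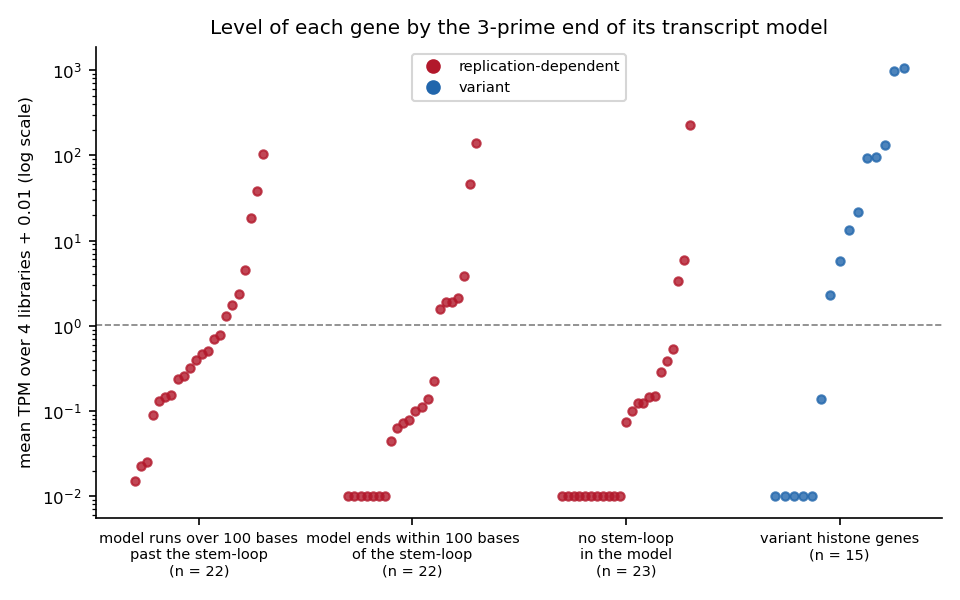
Mean TPM over 4 libraries + 0.01 (vertical log axis) of each protein-coding replication-dependent gene (red), by where its transcript model ends relative to the stem-loop, and of each variant (blue), with genes sorted by level within a column; the dashed line marks 1 TPM. None of the 22 genes with a long model lies at the bottom of the axis, against 7 of 22, 11 of 23 and, for variants, 5 of 15.

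A polyadenylation signal in the last 40 bases divided them in a similar way. Of 17 replication-dependent genes with one, all had a count and 5 were detected; of 50 without, 18 had no count (36.0%) and 6 were detected. The group medians were -0.55 ± 0.56 and -3.32 (SD, n = 4). These are counts over annotated models. A longer model offers more bases to which reads can be assigned, and its part in these counts was not tested.

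Transcript shares of the variants came from the authors' deposited percentages. H3f3a was carried mainly by H3f3a-201, at 60.5 ± 6.27% of the gene, H3f3a-207, at 26.4 ± 6.57%, and H3f3a-205, at 11.7 ± 1.22% (SD, n = 4). H2afy was carried by the coding H2afy-201, at 51.6 ± 3.10%, and by H2afy-204, annotated as a processed transcript with no coding bases, at 32.3 ± 1.19%. So not all of the gene-level TPM of H2afy comes from coding transcripts. H2afv, with 2 coding transcripts, had 78.8%, 52.5%, 43.0% and 48.1% in its longer transcript H2afv-202 in replicates 1 to 4; in the second quantification, described below, those shares were 53.1%, 39.6%, 43.9% and 48.9%, so the high share of replicate 1 was not seen there to that extent.

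Genes of histone message processing, of histone deposition and of S phase were listed beside the members. These lists, like the members, were chosen with earlier results of these data known. Of 26 measured genes that form or regulate histone 3-prime ends, 23 were detected. The highest were Snrpe at 114 ± 4.88, Tut7 at 104 ± 17.3 and Snrpb at 85.1 ± 7.89 TPM (SD, n = 4); Snrpe and Snrpb encode Sm-ring proteins, which the U7 particle shares with spliceosomal particles, and Tut7 is a uridyl transferase. Slbp, the stem-loop binding protein, had 31.2, 26.3, 27.1 and 21.9 TPM, and Npat, the activator of the histone clusters in S phase, had 3.26, 4.21, 4.24 and 2.85 TPM. The U7-specific proteins Lsm10 and Lsm11 had 30.9 ± 6.37 and 1.07 ± 0.299 TPM, Casp8ap2, a part of histone locus bodies, had 4.96 ± 1.55 TPM, and Zfp473, a zinc finger protein of the U7 machinery, had 0.133 ± 0.0727 TPM. Thus the binding protein stood well above the activator in each library.

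All 31 chaperones and remodellers were detected, led by Daxx, an H3.3 chaperone, at 212 ± 46.4, Npm1 at 175 ± 62.8 and Nap1l1 at 85.6 ± 12.1 TPM (SD, n = 4). Of 33 S-phase and proliferation genes 31 were detected, with a list median of 3.13 ± 0.38 log2 units, beside -2.30 ± 0.57 for replication-dependent histones. These medians are not like measures, because the selection depletes RNA without a polyA tail, the classical form of replication-dependent messages. The list was led by Pcna, the replication clamp, at 338, 208, 281 and 231 TPM, followed by the helicase subunit Mcm6 at 40.2 ± 13.7 and the methyltransferase Dnmt1 at 32.7 ± 0.861 TPM. Mki67, a marker of cycling cells, had 11.4, 21.9, 15.5 and 16.4 TPM. Of the other histone-family genes measured, Cenpa, the centromeric H3, had 2.78, 3.85, 2.16 and 4.95 TPM, and 4 of 6 had no count.

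Whether members varied over the libraries beyond other genes at the same level was tested in edgeR. Of 11679 genes tested, 305 passed an adjusted p of up to 0.05 (2.61%). Of 23 members tested, 1 passed, which is a share of the same small order, and 68 members fell under the filter on low counts. The 1 member was Hist1h1c. In replicates 1 to 4 its normalised counts came to 34.6, 129.7, 58.2 and 136.5 CPM, with an adjusted p of 1.2e-05 in edgeR; replicates 2 and 4 were high and replicate 1 was lowest. Over the alternative settings its adjusted p ranged from 1.5e-05 to 0.022.

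Small noncoding RNA genes, listed above, also held their highest shares of TPM in replicates 2 and 4 and their lowest in replicate 1. Of the neutrophil markers, S100a8 and S100a9, which made up nearly all of their sum, were highest in replicates 1 and 3. The part of all these RNAs in the level of Hist1h1c was not tested. Among single RNAs of the class without a polyA tail, Rn7s1 and Rn7s2, copies of the signal recognition particle RNA listed with equal values, had 46.3, 141.8, 96.4 and 96.1 TPM each and did not pass the variation test (edgeR adjusted p = 1.00). The ribosomal RNA gene CT010467.1 did pass and was highest in replicate 1, at 71358 TPM, against 27299, 12897 and 26892 TPM in replicates 2, 3 and 4 (edgeR adjusted p = 1.9e-05). Of 33 tested S-phase genes 6 passed the same test, namely Mcm5, Cdt1, Mcm4, Mcm2, Lig1 and Rrm2. In normalised counts, the scale of the test, the first 5 of these were highest in replicate 1, where Hist1h1c was lowest. Mcm5, a helicase subunit, had 57.2, 17.2, 31.1 and 25.3 CPM, Cdt1, a licensing factor, had 38.8, 16.5, 13.2 and 15.9 CPM, and Lig1, a DNA ligase, had 26.3, 8.68, 19.1 and 10.5 CPM. In TPM Lig1 was nearly level in replicates 1 and 3, at 12.4 and 13.2. Rrm2, a subunit of ribonucleotide reductase, was highest in replicate 3 on both scales, at 7.26 CPM and 5.96 TPM. Of the 25 tested 3-prime end processing genes 0 passed in edgeR, 0 had an unadjusted p under 0.05 and 0 passed with DESeq2's dispersion trend, and of the 31 chaperones 1, Mcm2, passed in edgeR.

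**Figure D4:**
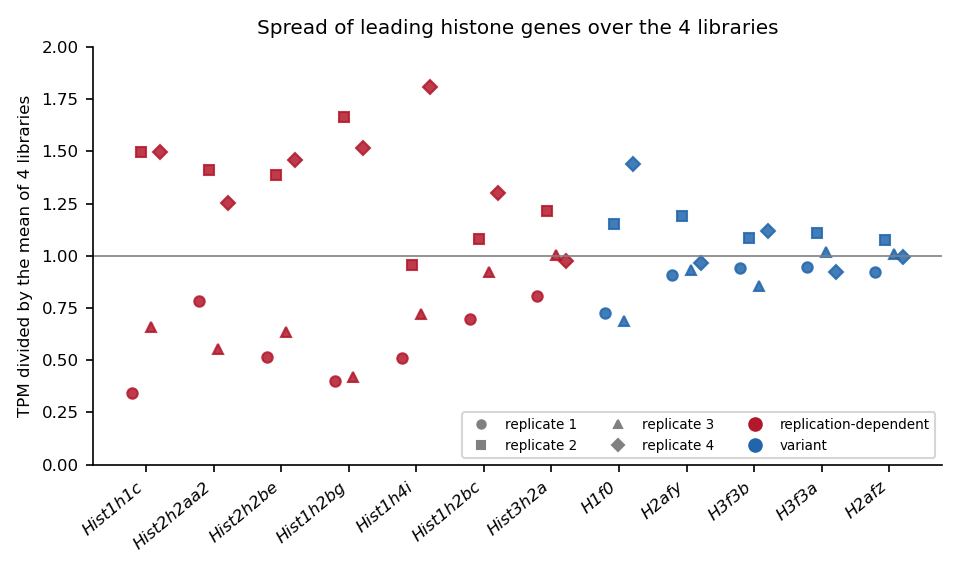
TPM of each library divided by the gene's mean over 4 libraries (vertical axis, linear) for 7 replication-dependent genes (red, left) and 5 variants (blue, right), with 1 symbol per library and a line at the mean. Hist1h1c spans 35.3 to 154 TPM, and H3f3a stays within 892 to 1076 TPM.

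Among detected genes the coefficient of variation over libraries had a median of 49.2% for 11 replication-dependent genes and 19.8% for 9 variants, beside 16.5% for 9704 protein-coding genes. It ran from 16.7% to 68.5% in the first group and from 6.30% to 36.0% in the second. Low counts raise this measure, while the edgeR test allows for abundance. It passed 1 of 12 replication-dependent genes tested, with 5 at an unadjusted p under 0.05. Of 9 variants it passed 0, with 1 at an unadjusted p under 0.05, and 0 passed with DESeq2's dispersion trend. That variant was H1f0, at an edgeR adjusted p of 0.302. For Hist2h2aa2 the edgeR adjusted p was 0.102, ranging from 0.0011 to 1.00 over the alternatives. It passed in the second quantification, at 0.0011 (2.62% of all genes passed there), and without replicate 1, at 0.023 (1.12% of all genes). Its 31-base stretches all occur in another gene. In replicate 3 of the second quantification it had 36.5 TPM and its neighbour Hist2h2aa1 48.9 TPM, the reverse of their order in the first. The part of shared reads in these passes was not tested, nor was the sum of the pair. For Hist1h2bg, Hist2h2be and Hist1h4i the edgeR adjusted p was 0.215, 0.227 and 0.319. Unadjusted edgeR p-values under 0.05 were found for 6 of 23 members tested, a larger share than the 910 of all 11679 genes tested (7.79%).

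The authors quantified each library in 2 ways, from alignments to transcripts (the first, used above) and from the unaligned reads (the second). Near-identical genes are where such methods can differ, since a read that fits several genes must be shared out. The difference, second minus first, in log2(TPM + 0.1) was tested by limma over the 4 libraries. Each SE given with such a difference is limma's moderated SE, drawn towards a trend over all genes. For genes near 0 TPM it can be well below the SE of the gene's own 4 values, and the p-values share this limit. Calls needed an adjusted p of up to 0.05 together with a difference of at least 1 log2 unit, and 1341 of 12300 genes reached both (10.9%). Of 28 members tested 5 were called: 3 lower in the second, beside 3.22% of all genes, and 2 higher, beside 7.68%. Genes were tested if their mean was 1 TPM or more in either quantification. The 3 called lower reached that mean in the first only, so the filter admitted them through the quantification where they were high. The median difference was -0.33 for the members and -0.29 for all genes, so that most members were slightly lower in the second, as were genes at large.

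The largest differences were in processed pseudogenes of H3.3, copies of the message without introns. H3f3a-ps2 had 0.245, 0.252, 0 and 0 TPM in the second quantification, against 6.54, 20.1, 8.36 and 8.30 TPM in the first, a difference of -5.73 ± 0.28 log2 units (SE; limma adjusted p = 1.4e-90, and 0.0030 with no filter on low values). H3f3c, annotated as a processed pseudogene here, had 0, 0.863, 0 and 0 TPM in the second, against 7.47, 10.9, 7.65 and 3.55 TPM in the first, a difference of -5.31 ± 0.32 (SE). The 2 quantifications thus did not overlap in either gene. The first had assigned 19 to 50 expected counts per library to H3f3a-ps2 and 13 to 33 to H3f3c. Relative to H3f3a, at 699, 696, 926 and 810 TPM in the second and 916, 1076, 988 and 892 TPM in the first, these were small amounts. Of the other noncoding members with a count, H3f3a-ps1 had at most 3 counts, Hist3h2bb-ps at most 5 and the antisense H3f3aos at most 6; whether counting used strand is not given in the sources used here.

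Hist2h3c1, whose 31-base stretches all (100%) occur in another gene, had 0, 0, 0.964 and 0 TPM in the second quantification, against 1.34, 1.15, 3.02 and 1.44 TPM in the first (-3.24 ± 0.54, SE). Its neighbour Hist2h3c2 had 1.64, 2.36, 1.14 and 2.49 TPM in the second, against 2.20, 3.61, 0.97 and 2.53 TPM in the first, and was not called. Hist1h4k and Hist1h4n were called higher in the second, at 1.13 ± 0.22 and 1.01 ± 0.28 log2 units (moderated SE, which understates the spread of these genes over the libraries). Both calls depend on single libraries. Hist1h4k had 1.37, 4.55, 1.11 and 9.32 TPM in the second, with 1.11 TPM in replicate 3 where the first gave 0. Without replicate 3 its difference was 0.30 and was not called, and without replicate 1, where the first gave 0, that of Hist1h4n was 0.31 and was not called. Hist1h4n was also not called without replicate 4, at a difference of 1.15 and a limma adjusted p of 0.107; its adjusted p over the alternatives ranged from 1.1e-04 to 0.407. For the Hist2h2aa1 and Hist2h2aa2 pair, the sum was 104, 161, 85.3 and 165 TPM in the second, against 151, 253, 112 and 230.0 TPM in the first.

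**Figure D5:**
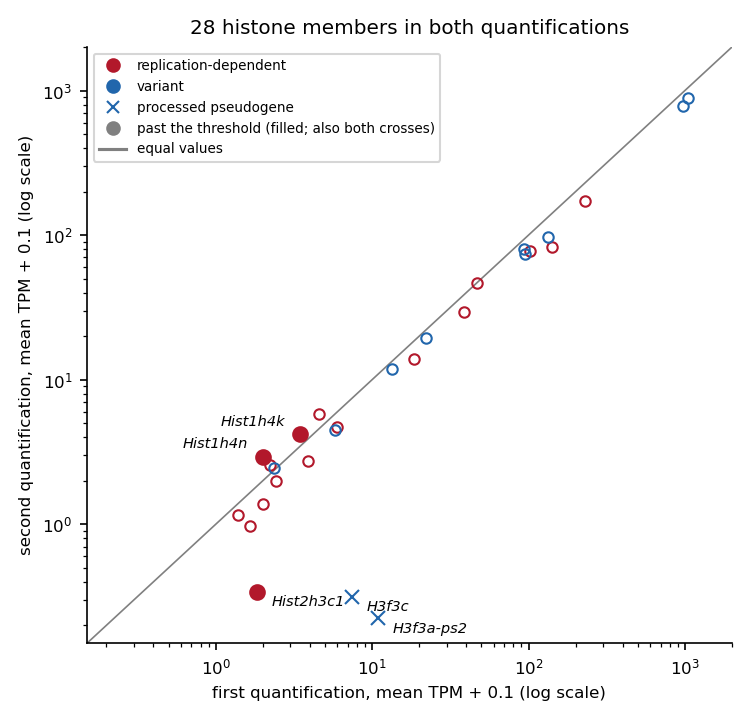
Mean TPM + 0.1 over 4 libraries in the second quantification (vertical log axis) against the first (horizontal log axis) for the 28 histone members tested; red is replication-dependent, blue is variant, crosses are processed pseudogenes and the line marks equal values. The 5 labelled members passed the threshold: Hist2h3c1, H3f3c and H3f3a-ps2 lie far below the line, and Hist1h4k and Hist1h4n above it.

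Within genes, the quantifications gave similar transcript shares for some variants: H3f3a-201 averaged 62.9% in the second and 60.5% in the first, H2afz-201 97.2% and 97.04%, and H2afy-201 49.8% and 51.6%. In H3f3b and H2afj they divided transcripts differently, and more so in some libraries. H3f3b-204, a short noncoding transcript, held 28.4%, 19.6%, 1.22% and 1.46% of H3f3b TPM in the second quantification in replicates 1 to 4, against 3.56%, 3.20%, 2.08% and 1.74% in the first. H2afj-202, the shorter coding transcript of H2afj, held 65.5%, 64.4%, 33.6% and 39.3% in the second, against 43.1%, 50.6%, 37.4% and 38.8% in the first. In both genes the second quantification gave the short transcript more in replicates 1 and 2, the libraries with 6 read files, than in replicates 3 and 4, which have 4 read files. In the first quantification Hist2h3c1-201 held 99.97%, 96.2%, 0% and 0% of Hist2h3c1, on 28 to 138 counts, and Hist2h3c1-202 the rest. The part of the read files, or of library depth, in these shares was not tested.

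Gene-level values were also set against the number of read files, with replicates 3 and 4 (4 read files) over replicates 1 and 2 (6 read files). The same split parts the libraries by depth, so read files and depth cannot be told apart. Replicates 1 and 2 held 26613690 and 23167140 expected counts on genes, and replicates 3 and 4 held 41453162 and 34946569. edgeR's quasi-likelihood test called 0 of 12667 genes (0%), and 897 had an unadjusted p under 0.05. Of 28 members tested it called none, and none had an unadjusted p under 0.05. DESeq2 called 103 genes and no member. With so few libraries on each side, the lack of a call does not show equal levels. Within the pairs of libraries with equal read files, the median of replication-dependent genes lay -4.69 log2 units from that of variants in replicates 3 and 4, and -4.95 in replicates 1 and 2.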

How the data were processed

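PolyA RNA-seq of 4 libraries was used from the deposited tables. The records deposited with them name mm10 and GENCODE M21. By these records, the first quantification starts from alignments to transcripts, the second from the unaligned reads. The programs are not given in the sources used here; the column names are those that RSEM and kallisto write. Per the file headers the values are expected counts (first) and estimated counts (second), neither normalised. The deposited TPM values were scaled by the authors for effective length and library size. The share of a transcript in its gene was deposited in percent by the authors. RNA without a polyA tail is depleted by the selection, so levels of replication-dependent genes are levels in the selected RNA only.

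Counts were rounded to whole numbers for count models. Members, gene lists, tests and the rule for named genes were chosen with earlier results of these data known. Named were the 15 replication-dependent genes with the highest mean TPM, the variants with a count, members past a threshold or at least 4-fold apart between quantifications, the 3 highest genes of the processing, chaperone, S-phase and non-polyadenylated lists, genes of these lists past the variation threshold and a few fixed genes such as Slbp and Pcna. Hist1h4m and the cell type markers named were chosen after their values were seen.

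Variation between libraries was tested in edgeR 4.0.16 (R 4.3.3): filterByExpr, TMM normalisation, a trended dispersion, and the deviance over 4 libraries with 3 degrees of freedom. The common biological coefficient of variation was 22.4%. limma 3.58.1 compared the quantifications on genes at a mean of 1 TPM or more in either of them, over the transcripts in both. For the read-file split edgeR's quasi-likelihood test was used, with DESeq2 1.42.0 as an alternative. All p-values were adjusted over all genes by Benjamini-Hochberg at 0.05. The edgeR tests of variation and of read files were checked on simulated counts. The limma comparison was checked on TPM of the first quantification with noise and known changes added. Tables were handled in Python 3.11.15 with numpy 2.4.6 and pandas 2.3.3, and plots drawn in matplotlib 3.10.9. Sequences were searched in the 141767 transcripts of GENCODE M21, and 31-base stretches were compared over the same set.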

Additional observations from a re-analysis of the deposited data

Results flagged for a closer look

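For 39 values over the 4 libraries (members at a mean of 1 TPM or more, class sums and the difference of medians), the library at either end was set against its nearest neighbour, and a gap whose part of the whole range exceeds Dixon's 95% critical value was taken as far from the others. Chance gives about 1 such value in 20. There were 3. Hist2h3c1, an H3 gene, had 3.02 TPM in replicate 3, against 1.34, 1.15 and 1.44 TPM in replicates 1, 2 and 4. Hist1h4m, an H4 gene, had 5.49 TPM in replicate 4, against 0.73, 0 and 0 TPM in replicates 1, 2 and 3, on at most 19 counts. In the second quantification Hist1h4m had 0.303, 0.408, 0 and 2.78 TPM in replicates 1 to 4, again highest in replicate 4. The pseudogene H3f3a-ps2 had 20.06 TPM in replicate 2, against 6.54, 8.36 and 8.30 TPM in replicates 1, 3 and 4, and at most 0.252 TPM in any library of the second quantification.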

How the results depend on the processing

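The difference of medians, replication-dependent minus variant, was negative under all alternatives. It was -2.58 and -5.77 log2 units with 1 and 0.01 added, -3.66 with pseudogenes, -7.57 without germ-cell genes, -3.38 with H2afx and H2afj counted as replication-dependent, -3.45 as a mean, -4.28 in the second quantification and -5.34 without the 3 leading replication-dependent genes; without 1 replicate it was -4.95 to -4.66. The replication-dependent share of histone messages was 13.98% in counts not divided by length (CPM) and 14.9% without Hist2h2aa1 and Hist2h2aa2; these 2 genes were set aside, as were the 3 leading genes, after seeing the data. Without 1 replicate it was 18.5% to 21.5%. Detected members numbered 13 at 5 TPM, and detected replication-dependent genes 19 at 0.1 TPM and 6 at 5 TPM. Variable genes numbered 135 to 219 without 1 replicate, fewest without replicate 1. Variable members numbered 2 with no filter (adding Hist1h4m), in the second quantification and without replicate 1 (adding Hist2h2aa2), and 1 to 2 without 1 replicate. Between the quantifications 2144 genes differed with no filter, and 3 members with 1 added and with no filter, both without Hist1h4k and Hist1h4n; without 1 replicate 4 to 5 members did. By read files 103 genes passed in DESeq2 and 35 with no filter in edgeR, and 0 to 13 without 1 replicate, most without replicate 2. The cause of these changes was not tested. No paired analysis was possible because all libraries belong to 1 group. Low counts limit most replication-dependent genes: 12 of 67 had 10 counts in each library.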
